A study of Homo sapiens with 6 samples.

Results

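Transcript levels of 44 DNA repair and damage checkpoint genes were examined in cells labelled as MDA-MB-468 that carried either a short hairpin RNA against cytokeratin 5 or a control hairpin. The genes were taken by name from a list of homologous recombination, Fanconi anaemia, mismatch repair, end-joining and checkpoint genes. All 44 names were found among the 56505 rows of the count table. Of these, 42 passed the filter on low counts, and RAD50 and RAD51D had no count in any library. They stand among 19567 genes tested in all.

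Homologous recombination repairs a double-strand break by copying an intact sister chromatid. Nucleases first resect the broken end, BRCA1 and its partners then recruit BRCA2, and a recombinase filament searches for the matching strand. The Fanconi anaemia pathway unhooks interstrand crosslinks by attaching ubiquitin to the FANCD2 and FANCI pair and then hands the break to recombination. End joining ligates broken ends without a template, and mismatch repair corrects replication errors. Many of these genes are transcribed mostly in S and G2 phase. Loss of BRCA1 function is common in basal-like breast cancer, the type to which this line belongs, and makes cells sensitive to PARP inhibitors.

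The comparison was made on total RNA from 3 libraries labelled shCK5-22 (pLK0-shCK5-425222, shCK5 below) and 3 libraries labelled shControl (pLK0-shControl), from cells grown in serum-supplemented medium without further treatment. A single knockdown hairpin was used, so effects of the hairpin other than loss of its target cannot be told apart from the knockdown. Nothing in the labels ties the replicates to separate cultures. The p-values therefore reflect the spread among these 6 libraries alone, and it may be technical. Libraries held 75460940 to 83594772 counts in shCK5 and 68810882 to 75529699 in shControl. The targeted gene, KRT5, had 16.41 ± 0.844 CPM (counts scaled to library size with TMM factors) in shCK5 and 2044 ± 23.3 CPM in shControl (mean ± SD, n = 3 each). RB1 and SMAD4, which are deleted in MDA-MB-468, had means of 100.9 and 16.85 CPM in shCK5, against 1.996 and 0.2346 CPM in shControl. The libraries labelled shCK5 thus go against the line's known deletions. Every difference below is between libraries under these labels, and a difference of cell origin and an effect of the knockdown cannot be told apart. The epithelial genes EPCAM and CDH1 had 26.6 and 3.891 CPM in shCK5, against 316.1 and 120.1 CPM in shControl. Summed levels of 7 fibroblast, 6 leukocyte and 5 endothelial markers stayed at or below 14.05, 1.713 and 6.939 CPM in every shCK5 library and 14.01, 6.951 and 6.367 CPM in every shControl library.

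Most of the repair genes that differed were higher in shCK5, by less than 2-fold. Of the 42 tested, 24 rose, 9 fell and 9 did not pass an adjusted p of 0.05 (quasi-likelihood test of edgeR, Benjamini-Hochberg adjusted over all tested genes). Of all tested genes, 82.7% passed, 40.9% higher and 41.7% lower, so the 78.6% of repair genes that passed lies near the background. Levels of shCK5 and shControl libraries did not overlap for 35 of the 42 (83.3%), against 84.2% of all tested genes. In bulk RNA, fewer cells with a transcript and less of it per cell cannot be told apart. The median log2 fold change was 0.372 over the repair genes and -0.019 over all tested genes. Over the 11054 genes with a mean level of at least 5 CPM, a class chosen after the data were seen, it was 0.124. The largest adjusted p among the 33 that passed was 0.00334, for RAD54B. Scaled by library size alone, the median of all genes moved to -0.156, and 23 repair genes were higher and 16 lower, so that 59.0% of those that passed were higher in place of 72.7%.

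**Figure D1:**
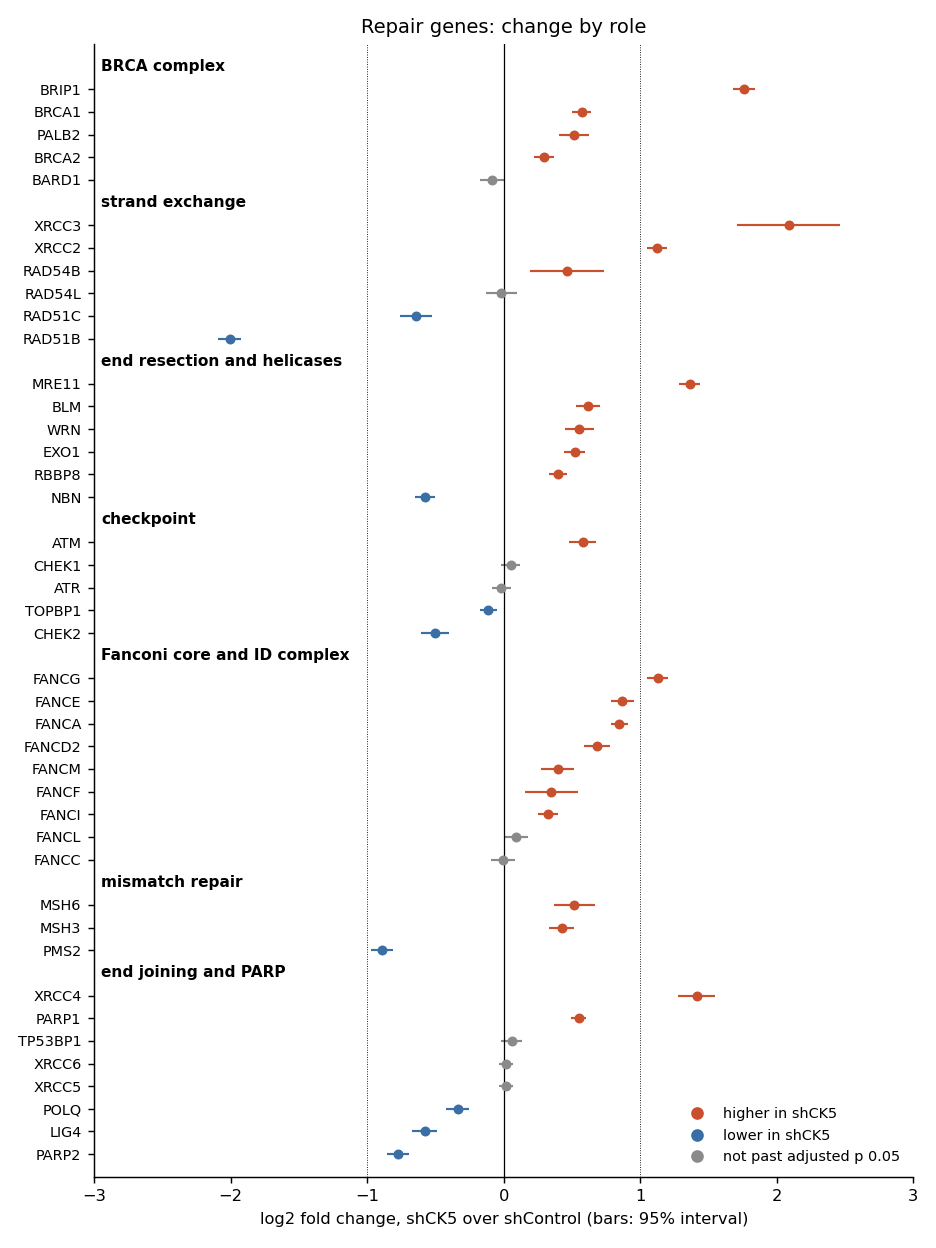
Log2 fold change of the 42 tested repair genes (shCK5 over shControl, horizontal axis), grouped by role, with 95% intervals over 3 libraries a group. Values run from -2.01 for RAD51B to 2.09 for XRCC3, 24 genes are higher, 9 are lower, and dotted lines mark a 2-fold difference.

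The size of the differences was small for this comparison. Only 7 of the 42 repair genes (16.7%) passed the test with a difference of at least 2-fold, against 44% of all tested genes. XRCC3, BRIP1, XRCC4, MRE11, FANCG and XRCC2 rose at least 2-fold (19.6% of all tested genes did) and RAD51B fell at least 2-fold (24.4%). The median absolute log2 fold change was 0.519 over the repair genes, against 0.853 over all tested genes. Among the 11054 genes with a mean level of at least 5 CPM, a class chosen after the data were seen, it was 0.652, and 33.7% passed with at least 2-fold. Within a group, the coefficient of variation of a repair gene had a median of 2.8% in shCK5 and 3.27% in shControl.

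**Figure D2:**
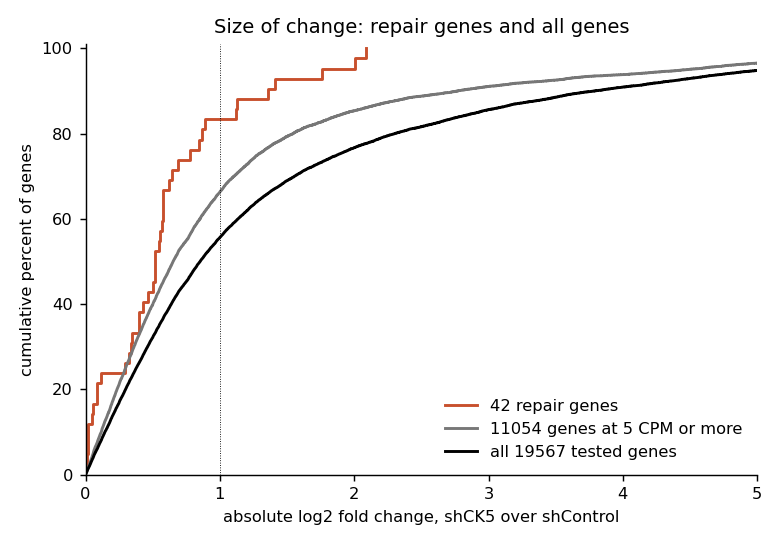
Cumulative percent of genes (vertical axis) against the absolute log2 fold change (horizontal axis) for the 42 repair genes, the 11054 genes at 5 CPM or more and all 19567 tested genes. The curve of the repair genes lies to the left at 2-fold (dotted line), beyond which lie 16.7% of them. Of all tested genes, 44% passed the test with at least 2-fold, while the curves count genes whether or not they passed.

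Among BRCA1 and its partners, 4 of 5 genes rose and none fell; the share that passed, 80.0%, lies near the 82.7% of all tested genes, of which 40.9% were higher. BRIP1 (chr17:61681266-61863521, minus strand), the helicase that binds the BRCT repeats of BRCA1, rose most. Its level was 61.48, 60.45 and 60.55 CPM in the shCK5 libraries, against 17.85, 18.56 and 17.36 CPM in the shControl libraries. Every shCK5 library stood far above every shControl library, and the fitted difference was 3.39-fold (log2 fold change 1.76, SE 0.0408, edgeR adjusted p = 1.28e-22). BRCA1 itself (chr17:43044295-43170245, minus strand), a ubiquitin ligase and scaffold of break repair, had 65.27, 69.17 and 68.86 CPM in shCK5 and 46.07, 45.61 and 45.05 CPM in shControl. The groups did not overlap, and BRCA1 rose 1.49-fold (log2 fold change 0.57, SE 0.0352, edgeR adjusted p = 1.11e-13).

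BARD1, the obligate partner of BRCA1 in its ligase, did not follow it. Its level was 28.51, 29.34 and 28.28 CPM in shCK5, against 29.53, 31.46 and 30.4 CPM in shControl. The groups did not overlap, yet the difference missed the threshold (log2 fold change -0.09, 95% interval -0.17 to -0.00, edgeR adjusted p = 0.0718), and passed it without shControl replicate 1 (adjusted p = 0.0451), with halved counts (0.0384), with upper-quartile factors (0.000427) and scaled by library size alone (log2 fold change -0.22, adjusted p = 6.78e-05). PALB2, which bridges BRCA1 and BRCA2, had 18.54, 19.43 and 18.66 CPM in shCK5 and 13.94, 12.8 and 12.87 CPM in shControl, a rise of 1.43-fold. BRCA2 (chr13:32315474-32400266, plus strand), which loads the recombinase, had 45.64, 48.0 and 48.6 CPM in shCK5 and 37.89, 39.43 and 38.57 CPM in shControl. Its rise, 1.23-fold, was the smallest of the 4 (SE 0.0386 on the log2 scale).

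The strand-exchange genes moved in opposite directions, and this role held the largest differences of all. RAD51B (chr14:67819779-68730218, plus strand), a recombinase paralog that works in a complex with RAD51C, had 14.22, 14.83 and 14.24 CPM in shCK5, against 58.25, 57.01 and 58.83 CPM in shControl. The groups stood far apart, and RAD51B fell by 2.01 on the log2 scale (SE 0.0422, edgeR adjusted p = 1.68e-23). RAD51C fell too, with 13.17, 12.77 and 13.68 CPM in shCK5 and 19.16, 21.46 and 21.2 CPM in shControl (log2 fold change -0.64, SE 0.0586). No value was obtained for the paralog RAD51D, whose row was 0 in every library. GENCODE places 9.45% of its exon bases in exons of other genes, and its expression was not judged from these counts.

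The other recombinase paralogs rose. XRCC2 (chr7:152644779-152676165, minus strand) had 68.95, 68.59 and 65.04 CPM in shCK5, against 30.55, 31.09 and 31.33 CPM in shControl, a rise of 2.18-fold (SE 0.0373 on the log2 scale). XRCC3 (chr14:103697609-103715504, minus strand), the partner of RAD51C in a complex of its own, had 3.085, 3.173 and 2.516 CPM in shCK5 and 0.6441, 0.9024 and 0.5015 CPM in shControl. The groups did not overlap and the difference was 4.25-fold (log2 fold change 2.09, SE 0.193, edgeR adjusted p = 3.5e-10), but it rests on 182 to 245 counts in shCK5 and 36 to 72 in shControl. Exons of KLC1, on the opposite strand, cover 76.7% of the exon bases of XRCC3, and KLC1 also rose (39.34 ± 1.55 CPM in shCK5, 23.89 ± 1.5 CPM in shControl, n = 3 each). The strand setting of the counting is not known here, so reads of these genes cannot be told apart.

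Of the translocases that remodel the recombinase filament, RAD54B rose and RAD54L did not pass. RAD54L had 20.25, 19.67 and 18.05 CPM in shCK5 and 20.75, 18.27 and 19.73 CPM in shControl, with overlapping groups (log2 fold change -0.02, 95% interval -0.13 to 0.10, edgeR adjusted p = 0.782; -0.154 with adjusted p = 0.0159 scaled by library size alone). LRRC41, on the opposite strand, shares 25.1% of the exon bases of RAD54L and had 61.58 ± 1.54 CPM in shCK5 and 65.38 ± 0.812 CPM in shControl. RAD54B, with 3.932 ± 0.401 CPM in shCK5 and 2.836 ± 0.598 CPM in shControl (n = 3 each), rose by 0.47 (SE 0.138). FSBP, a gene inside the RAD54B locus that covers 59.1% of the exon bases of RAD54B on the same strand, had no count. How reads in these shared exons were assigned is not known, so the level of RAD54B is uncertain.

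**Figure D3:**
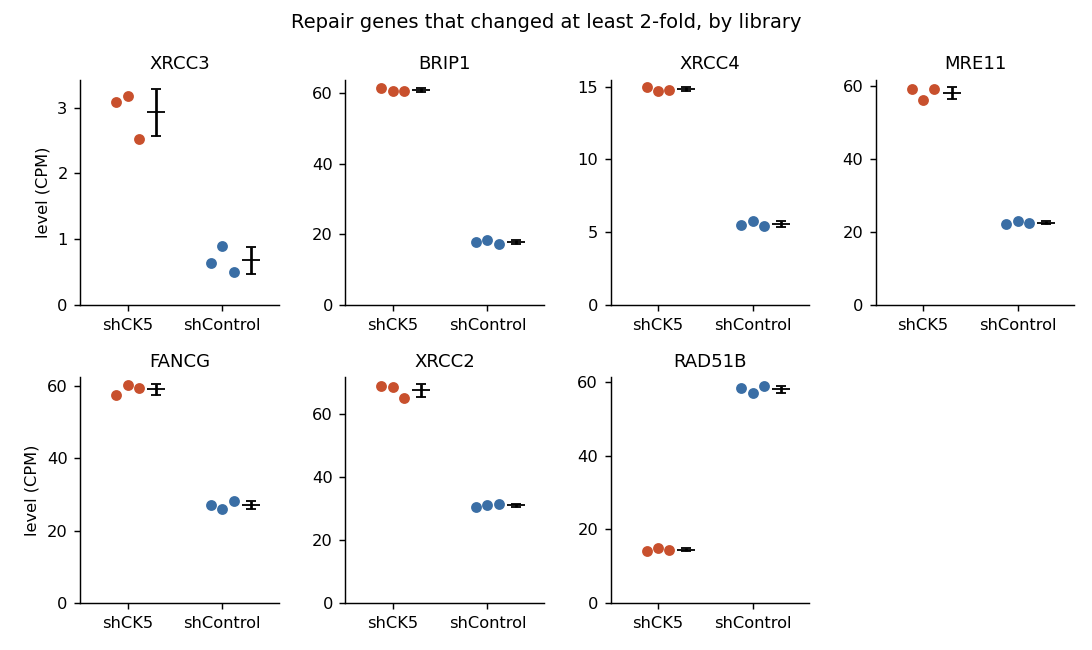
Level of the 7 repair genes that changed at least 2-fold, in CPM (vertical axes, from 0), for each of the 3 shCK5 libraries and the 3 shControl libraries, with the mean and SD beside the points. In each panel the groups do not overlap, as for 84.2% of all tested genes, and RAD51B is the gene whose shCK5 libraries lie below its shControl libraries.

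In end resection, the subunits of the MRE11, RAD50 and NBN complex, which binds and trims broken ends, moved apart. MRE11 (chr11:94415578-94493908, minus strand), the nuclease, had 59.21, 56.24 and 59.1 CPM in shCK5, against 22.29, 23.2 and 22.44 CPM in shControl. It rose 2.57-fold (log2 fold change 1.36, SE 0.0402, edgeR adjusted p = 2.11e-20). NBN, the subunit that recruits ATM, had 47.34, 49.98 and 48.71 CPM in shCK5 and 69.04, 75.81 and 72.72 CPM in shControl, and fell by 0.58 on the log2 scale (SE 0.0376). RAD50 was listed at 0 throughout, and 79.7% of its exon bases lie in exons of other GENCODE genes.

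RBBP8, EXO1, BLM and WRN rose, each by less than 2-fold. BLM, the helicase mutated in Bloom syndrome, had 35.92, 37.31 and 37.21 CPM in shCK5 and 23.05, 25.35 and 23.46 CPM in shControl, a rise of 1.54-fold. WRN, the Werner syndrome helicase, averaged 19.16 ± 0.133 CPM in shCK5 and 13.05 ± 0.408 CPM in shControl (1.47-fold). EXO1, the long-range resection nuclease, averaged 59.95 ± 2.32 CPM in shCK5 and 41.81 ± 1.81 CPM in shControl (1.43-fold). RBBP8 encodes CtIP, which starts resection together with MRE11, and averaged 72.59 ± 0.881 CPM in shCK5 and 55.15 ± 1.4 CPM in shControl (1.32-fold; SD, n = 3 each for these genes).

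The checkpoint kinases gave mixed results, and none reached 2-fold. ATM, the kinase activated by double-strand breaks, had 27.13, 27.64 and 29.8 CPM in shCK5 and 19.22, 18.86 and 18.53 CPM in shControl, and rose by 0.58 on the log2 scale (SE 0.0496). Its effector CHEK2 fell by 0.50 (SE 0.0524), with 19.09, 20.06 and 19.32 CPM in shCK5 and 28.51, 25.52 and 28.86 CPM in shControl. In both genes the groups did not overlap.

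ATR and CHEK1, the kinases of stalled replication forks, did not pass with TMM scaling, but passed as lower with library size alone. ATR had 49.04, 48.61 and 50.02 CPM in shCK5 and 48.64, 50.32 and 50.51 CPM in shControl (log2 fold change -0.02, 95% interval -0.09 to 0.05, edgeR adjusted p = 0.651; -0.15 with adjusted p = 0.000454 scaled by library size alone, -0.12 with adjusted p = 0.00454 with upper-quartile factors). CHEK1, which ATR activates, had 63.38, 65.88 and 66.0 CPM in shCK5 and 64.07, 64.14 and 60.19 CPM in shControl (log2 fold change 0.05, 95% interval -0.02 to 0.12, adjusted p = 0.18; -0.086 with adjusted p = 0.0339 scaled by library size alone). In both genes the groups overlapped. TOPBP1, the activator of ATR, had 101.9, 100.8 and 95.49 CPM in shCK5 and 108.8, 108.5 and 105.4 CPM in shControl. It fell by 0.11 (SE 0.0311, edgeR adjusted p = 0.00173) and missed the threshold without shCK5 replicate 3 (adjusted p = 0.0562).

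Of the 9 genes of the Fanconi core complex and the FANCD2 and FANCI pair, 7 rose (77.8%) and none fell. Of all tested genes, 82.7% passed and 40.9% were higher. FANCG (chr9:35073835-35080016, minus strand), a core complex subunit, had 57.5, 60.41 and 59.61 CPM in shCK5, against 27.17, 25.94 and 28.22 CPM in shControl, a rise of 2.18-fold (log2 fold change 1.13, SE 0.0405, edgeR adjusted p = 1.35e-18). FANCE, the subunit that binds FANCD2, had 45.99, 46.75 and 45.22 CPM in shCK5 and 26.5, 24.79 and 24.24 CPM in shControl (1.83-fold). FANCA, the most often mutated Fanconi gene, had 84.3, 85.87 and 84.28 CPM in shCK5 and 46.98, 46.91 and 47.6 CPM in shControl (1.8-fold). These core subunits stood clear of the control range in every library. ZNF276 overlaps 23.6% of the exon bases of FANCA on the opposite strand and went the other way, with 22.95 ± 0.405 CPM in shCK5 and 26.69 ± 0.834 CPM in shControl.

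The substrate pair of the pathway rose unequally. FANCD2 had 29.8, 31.94 and 31.79 CPM in shCK5 and 18.48, 19.93 and 19.75 CPM in shControl, a rise of 1.61-fold (SE 0.0487 on the log2 scale). FANCI had 70.41, 72.95 and 75.49 CPM in shCK5 and 55.78, 60.77 and 58.17 CPM in shControl, a rise of 1.25-fold (SE 0.0369). FANCM, the translocase that anchors the core complex to DNA, rose 1.32-fold, and the core subunit FANCF 1.27-fold (6.97 ± 0.929 CPM in shCK5 and 5.458 ± 0.374 CPM in shControl).

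The remaining genes of this role did not pass the test. FANCL, the ubiquitin ligase of the core complex, shares 18.7% of its exon bases with VRK2 on the opposite strand. VRK2 had 24.73 ± 1.27 CPM in shCK5 and 26.1 ± 1.29 CPM in shControl. FANCL had 27.72, 28.03 and 28.36 CPM in shCK5 and 25.59, 26.82 and 26.65 CPM in shControl. Its groups did not overlap, but the difference missed the threshold (log2 fold change 0.09, 95% interval 0.00 to 0.18, edgeR adjusted p = 0.0651; 0.098 with adjusted p = 0.0433 with RLE size factors, and -0.047 scaled by library size alone). FANCC had 35.34, 32.51 and 36.13 CPM in shCK5 and 34.85, 35.48 and 34.0 CPM in shControl, and the groups overlapped (log2 fold change -0.01, 95% interval -0.09 to 0.08, adjusted p = 0.913; -0.14 with adjusted p = 0.006 scaled by library size alone, -0.10 with adjusted p = 0.035 with upper-quartile factors).

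Of the mismatch repair genes, MSH3 and MSH6 rose and PMS2 fell. MSH3, which recognises longer insertion and deletion loops, had 27.55, 28.28 and 29.29 CPM in shCK5 and 20.57, 21.97 and 20.84 CPM in shControl (1.34-fold). MSH6, which recognises single mismatches, had 9.344, 9.466 and 9.219 CPM in shCK5 and 6.159, 6.981 and 6.436 CPM in shControl (1.43-fold). FBXO11 shares 16.2% of the exon bases of MSH6 on the opposite strand and had 40.88 ± 1.94 CPM in shCK5, against 44.05 ± 1.51 CPM in shControl. PMS2, an endonuclease subunit of mismatch repair, had 23.18, 22.86 and 24.6 CPM in shCK5 and 43.25, 43.8 and 44.06 CPM in shControl, and fell by 0.89 on the log2 scale (SE 0.0422, edgeR adjusted p = 4.48e-16). PMS2 has near-identical pseudogene copies, so its value is uncertain; the copy PMS2CL also fell, with 32.77 ± 1.6 CPM in shCK5 and 51.37 ± 0.166 CPM in shControl (log2 fold change -0.65).

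Among the 8 end joining and PARP genes, 2 rose, 3 fell and 3 did not pass, so 62.5% passed, against 82.7% of all tested genes (40.9% higher, 41.7% lower). XRCC5 and XRCC6 encode the Ku heterodimer that caps broken ends. XRCC5 had 396.1, 403.7 and 387.9 CPM in shCK5 and 379.8, 399.5 and 396.3 CPM in shControl (log2 fold change 0.01, 95% interval -0.04 to 0.07, edgeR adjusted p = 0.621). It passed as lower scaled by library size alone (-0.122, adjusted p = 0.000281) and with upper-quartile factors (-0.083, adjusted p = 0.00589). XRCC6 had 473.5, 470.3 and 464.2 CPM in shCK5 and 464.8, 463.7 and 463.5 CPM in shControl (log2 fold change 0.02, 95% interval -0.03 to 0.06, adjusted p = 0.536), and likewise passed as lower scaled by library size alone (-0.12, adjusted p = 9.3e-05) and with upper-quartile factors (-0.081, adjusted p = 0.00349). In both genes the groups overlapped.

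The ligation complex of end joining split. XRCC4 (chr5:83077498-83353787, plus strand), the scaffold of the ligase, had 14.99, 14.71 and 14.76 CPM in shCK5, against 5.475, 5.778 and 5.433 CPM in shControl, and rose 2.66-fold (log2 fold change 1.41, SE 0.07, edgeR adjusted p = 1.2e-15). LIG4, the ligase that XRCC4 stabilises, had 21.26, 20.9 and 20.37 CPM in shCK5 and 30.11, 31.92 and 31.43 CPM in shControl, and fell by 0.58 on the log2 scale (SE 0.0458). The groups did not overlap in either gene.

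TP53BP1, which shields ends from resection and favours end joining, did not pass. Its level was 49.84, 50.38 and 45.9 CPM in shCK5 and 47.29, 47.79 and 45.3 CPM in shControl (log2 fold change 0.06, 95% interval -0.02 to 0.14, edgeR adjusted p = 0.183; 0.112 with adjusted p = 0.0195 without shCK5 replicate 3, and -0.079 scaled by library size alone). TUBGCP4, on the opposite strand, shares 28.7% of its exon bases and did not differ past the threshold either (24.31 ± 0.781 CPM in shCK5, 24.62 ± 0.836 CPM in shControl). POLQ, the polymerase of alternative end joining, fell by 0.34 (SE 0.0432), with 32.09 ± 1.03 CPM in shCK5 and 40.57 ± 1.88 CPM in shControl (SD, n = 3 each).

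The targets of PARP inhibitors moved in opposite directions. PARP1, the main sensor of strand breaks, averaged 325 ± 3.69 CPM in shCK5 and 222.3 ± 4.47 CPM in shControl (n = 3 each) and rose by 0.55 on the log2 scale (SE 0.0263). PARP2 had 30.3, 30.0 and 32.34 CPM in shCK5, against 54.37, 52.76 and 51.42 CPM in shControl, and fell by 0.78 (SE 0.0405, edgeR adjusted p = 3.62e-15). Per kilobase of GENCODE exons, XRCC6, XRCC5 and PARP1 held the highest levels of the set, at 143, 72.5 and 45.3 CPM per kilobase in shCK5 and 141, 71.7 and 31 in shControl. XRCC3, at 0.39 and 0.0909, was the lowest of the tested repair genes. Exons of KLC1 cover 76.7% of the exon bases used as its length, so this low value may depend on how reads were assigned.

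Because genes inside a library share its scaling, the ratio of counts per kilobase between partners does not depend on the scaling between libraries. Of 10 ratios planned, 9 could be computed; the ratio of RAD50 to MRE11 could not. With 3 libraries a group, the smallest p of the two-sided exact permutation test is 0.1, so none could pass 0.05. LIG4 over XRCC4 was 0.865, 0.867 and 0.842 in the shCK5 libraries, against 3.35, 3.37 and 3.53 in the shControl libraries. NBN over MRE11 was 0.999, 1.11 and 1.03 in shCK5, against 3.87, 4.08 and 4.05 in shControl. Both ratios were lower in every shCK5 library, with log2 differences of -1.99 and -1.94 (exact p = 0.1, adjusted over the 9 ratios 0.129).

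The BARD1 over BRCA1 ratio was 0.661, 0.642 and 0.622 in shCK5, against 0.971, 1.04 and 1.02 in shControl. CHEK2 over CHEK1 averaged 0.437 ± 0.0088 in shCK5 and 0.643 ± 0.06 in shControl, ATR over ATM 3.35 ± 0.13 in shCK5 and 5.07 ± 0.19 in shControl, and FANCI over FANCD2 2.53 ± 0.053 in shCK5 and 3.24 ± 0.058 in shControl (SD, n = 3 each). XRCC3 over RAD51C went the other way, at 0.189, 0.201 and 0.149 in shCK5 and 0.0272, 0.034 and 0.0191 in shControl. Each of these had an exact p of 0.1 and groups that did not overlap. XRCC6 over XRCC5, the Ku genes, averaged 1.97 ± 0.03 in shCK5 and 1.97 ± 0.057 in shControl (exact p = 1), with overlapping groups. MSH3 over MSH6 also overlapped, at 7.09 ± 0.28 in shCK5 and 7.57 ± 0.22 in shControl (exact p = 0.2).

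**Figure D4:**
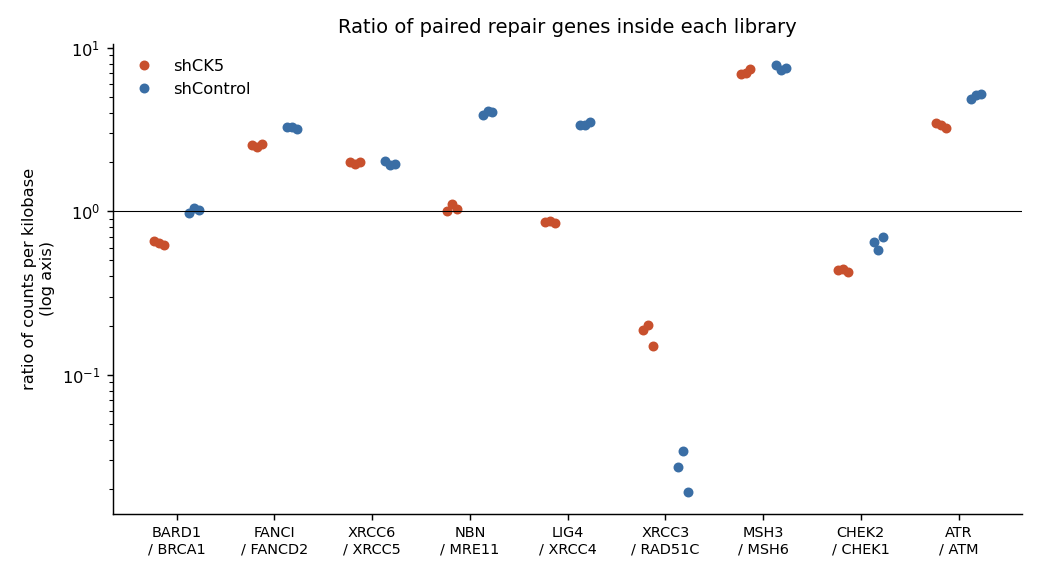
Ratio of counts per kilobase of exon between 2 partner genes inside each library (vertical log axis), for 9 pairs, with shCK5 libraries left of shControl libraries. LIG4 over XRCC4 and NBN over MRE11 lie near 1 in shCK5 and between 3.35 and 4.08 in shControl, while XRCC6 over XRCC5 overlaps.

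Other genes of the same pathways were also more often higher than lower. Of 50 further repair and checkpoint genes, 45 were tested, 30 rose, 10 fell and 5 did not pass. The share that passed was 88.9%, against 82.7% of all tested genes (40.9% higher, 41.7% lower). With at least 2-fold, 7 genes (15.6%) passed, all of them higher, against 44% of all tested genes (19.6% higher, 24.4% lower). ERCC4, the nuclease subunit that incises crosslinks, had 13.08 ± 0.428 CPM in shCK5 and 4.147 ± 0.176 CPM in shControl (log2 fold change 1.65, SE 0.0772). RAD18, a ubiquitin ligase of damage bypass, rose by 1.39 (SE 0.0362), the helicase gene RECQL by 1.36 (SE 0.0446) and TIPIN, a fork protection factor, by 1.36 (SE 0.0611) on the log2 scale. GEN1, BRCC3 and BABAM1 had no count in any library, and NHEJ1 and ATRIP were too low to be tested. How reads were assigned to genes is not known, so the expression of these genes was not judged from these counts.

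Markers of cycling cells were mostly higher too. Of 27 proliferation and S phase genes, 18 rose, 8 fell and 1 did not pass. The share that passed was 96.3%, against 82.7% of all tested genes (40.9% higher, 41.7% lower). With at least 2-fold, 7 were higher and 2 lower (33.3%), against 44% of all tested genes (19.6% higher, 24.4% lower). The summed level of the 27 genes was 6742 to 6806 CPM in the shCK5 libraries and 4431 to 4479 CPM in the shControl libraries. Abundant genes weigh most in this sum, such as MKI67, with means of 1462 CPM in shCK5 and 622 CPM in shControl. S phase genes went both ways: MCM3 and RRM1 were among those that rose, TYMS and PCNA among those that fell. E2F1, a transcription factor of S phase genes, had 199.5 ± 3.07 CPM in shCK5 and 57.97 ± 2.04 CPM in shControl, and TOP2A and AURKB rose by 1.43 and 1.38 on the log2 scale. MYBL2, another cell cycle regulator, fell by 1.33. The part of these differences in the levels of the repair genes was not tested.

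Promoter sequences are shown for the 2 genes that rose most and for PMS2, which fell. None is shown for RAD51B, since its RefSeq windows lie inside the gene as GENCODE places it. They are the 250 bases before the first RefSeq start of each gene on GRCh38.p14, written 5′ to 3′ along the gene, with capitals for the motifs searched.
XRCC3 (higher in shCK5, chr14:103715452-103715701, minus strand): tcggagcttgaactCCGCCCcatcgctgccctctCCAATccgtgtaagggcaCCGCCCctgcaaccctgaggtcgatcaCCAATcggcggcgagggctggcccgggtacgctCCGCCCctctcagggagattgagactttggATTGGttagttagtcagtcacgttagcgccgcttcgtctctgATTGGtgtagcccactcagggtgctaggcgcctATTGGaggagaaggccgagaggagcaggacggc
BRIP1 (higher in shCK5, chr17:61863529-61863778, minus strand): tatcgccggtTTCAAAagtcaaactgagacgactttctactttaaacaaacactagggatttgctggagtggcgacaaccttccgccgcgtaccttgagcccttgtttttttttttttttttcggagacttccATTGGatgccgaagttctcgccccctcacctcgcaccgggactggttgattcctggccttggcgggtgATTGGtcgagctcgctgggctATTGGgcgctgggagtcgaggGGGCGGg
PMS2 (lower in shCK5, chr7:6009107-6009356, minus strand): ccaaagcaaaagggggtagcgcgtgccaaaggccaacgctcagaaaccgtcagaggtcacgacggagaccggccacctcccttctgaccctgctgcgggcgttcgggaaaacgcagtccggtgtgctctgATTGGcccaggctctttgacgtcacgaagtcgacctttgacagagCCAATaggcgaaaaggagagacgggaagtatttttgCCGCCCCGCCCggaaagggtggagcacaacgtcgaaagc

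The motifs were TTTGGCGC and TTTCGCGC (E2F), TTTGAA and TTCGAA (cell cycle genes homology region), CCAAT (NF-Y) and GGGCGG (SP1), sought on both strands in windows from 250 bases before to 50 after each start. RefSeq windows were found for 37 of the tested repair genes. RAD51B was kept among them, and counts as a lower gene without a motif. Windows of some others, among them FANCC, TOPBP1 and MSH6, also lay inside the gene as GENCODE places it. An E2F motif was found in 5 of the 37 genes (EXO1, FANCC, MSH3, TOPBP1 and XRCC6, 13.5%), and in 2.1% of the 11528 tested genes with a window. Of these 5, EXO1 and MSH3 rose, TOPBP1 fell, and FANCC and XRCC6 did not pass.

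CCAAT was present in 19 of 37 repair genes (51.4%) and in 42.2% of tested genes. It was found in 12 of the 21 higher genes with a window, among them XRCC3 and BRIP1, and in 3 of the 8 lower ones. GGGCGG was present in 30 (81.1%), against 72.6% of tested genes, and TTTGAA in 4 (10.8%), against 14.4%. A match is a run of letters, not a bound site, and genes with several starts had more chances to match.

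The differences were also read against the genes beside each repair gene, a comparison added after the data were seen. The sign of a repair gene was that of the median of the 5 tested genes on either side in 30 of 42 cases (71.4%), against 64.0% of all 16235 tested genes placed on the annotation. Its value lay within their range in 38 cases (90.5%, against 82.2%). FANCD2 had 10 higher neighbours of 10, with log2 fold changes from 0.30 to 2.80, and BRIP1 had 8 higher neighbours. FANCA differed from its surroundings: it had a log2 fold change of 0.85, while 9 of 10 neighbours fell (median -0.93, highest 0.06). XRCC3 lay above its neighbours too (median -0.22, highest 1.18), and RAD54L and TOPBP1 lay just above neighbours of which 9 each fell.

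**Figure D5:**
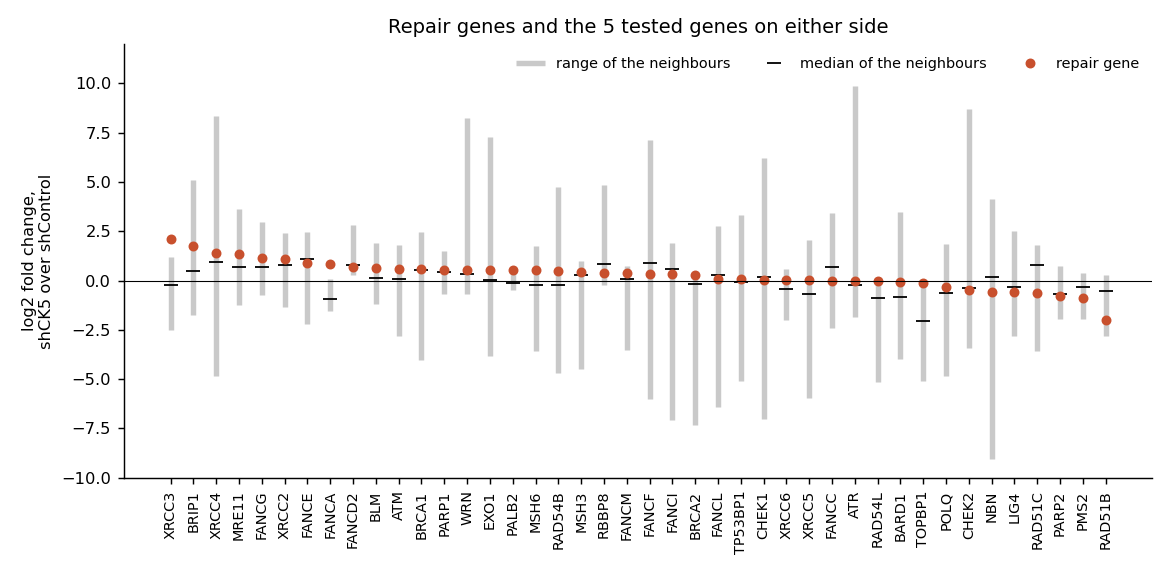
Log2 fold change (shCK5 over shControl, vertical axis) of each tested repair gene (point), with the median (dash) and range (bar) of the 5 tested genes on either side of it. XRCC3, FANCA, RAD54L and TOPBP1 lie above the range of their neighbours, and the other 38 lie within it.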

How the data were processed

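RNA-seq counts of 6 libraries were analysed. The authors deposited one table of unnormalized counts by gene symbol. GRCh38, cutadapt, STAR, SAMtools and Cufflinks are named in the submitters' processing notes. How reads were assigned to genes (program, annotation, strand, multiple hits) was not stated there. Reads of overlapping genes and near-identical copies can therefore not be told apart. Between 63.1% and 65.0% of counts above 20 were even, as arises when mates are counted singly.

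Rows were filtered with filterByExpr and scaled with TMM factors in edgeR 4.0.16 (R 4.3.3). Groups were compared with its quasi-likelihood test, which was tested on simulated data. Only a small part of the genes changed in the simulated data, so they do not cover a comparison in which 82.7% of tested genes passed. Log2 fold changes are shCK5 over shControl with the standard error of the fit. The 95% intervals use the normal quantile, so they are narrower than the quasi-likelihood test implies. For BARD1 and FANCL they end just short of no difference, although the unadjusted p of the edgeR test was 0.0604 and 0.0545. DESeq2 1.42.0 served as an alternative. Positions and exon lengths came from GENCODE release 29 on GRCh38, while the authors' own annotation is unknown, and promoters from RefSeq on GRCh38.p14. Depth was 68810882 to 83594772 counts per library, and count-based precision covers counting error only. Genes were named by role: values in every library for the 3 largest differences of each role, those not passing, BRCA1, BRCA2 and ratio partners, and the 4 largest differences of each further list. The genes and lists were chosen with earlier results of these data known.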

Additional observations from a re-analysis of the deposited data

How the results depend on the processing

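Of 546 repair gene values under 13 alternatives (other scalings, DESeq2, no filter, halved counts, a replicate block and each library left out), 514 kept their direction and their side of the threshold. Among the 33 genes that passed, none reversed, and 2 values missed the threshold: TOPBP1 without shCK5 replicate 3 (adjusted p = 0.0562) and FANCF scaled by library size alone (adjusted p = 0.0514). Genes that had not passed did so in 16 cases, 5 of them in the other direction: RAD54L, ATR, CHEK1, FANCC, XRCC5, XRCC6 and BARD1 as lower with library size alone, the same genes other than RAD54L and CHEK1 with upper-quartile factors, BARD1 with halved counts and without shControl replicate 1, FANCL as higher with RLE size factors, and TP53BP1 as higher without shCK5 replicate 3. Counts of lower genes depended on scaling: 9 became 16 with library size alone and 14 with upper-quartile factors. With library size alone, 2 genes fell at least 2-fold and 4 rose at least 2-fold. The median of all genes moved to -0.156 with library size alone and to -0.117 with upper-quartile factors. TMM factors, which scaling by library size alone leaves out, were 0.9499 to 0.9588 in shCK5 and 1.043 to 1.056 in shControl. Why the factors differ between the groups was not tested. Genes near no difference changed sign. With library size alone CHEK1 was at -0.086, FANCL at -0.047, TP53BP1 at -0.079, XRCC5 at -0.122 and XRCC6 at -0.12; with upper-quartile factors they were at -0.047, -0.009, -0.04, -0.083 and -0.081. FANCC was at 0.004 with DESeq2 and with RLE size factors and at 0.009 without the filter. With 1 library left out, ATR ranged from -0.032 to 0.002, FANCC from -0.022 to 0.05, RAD54L from -0.065 to 0.042 and XRCC5 from -0.005 to 0.043; 24 to 25 repair genes were higher and 8 to 10 lower. Without the 10 genes that share over 10% of their exon bases with another gene, and PMS2, a choice made after the data were seen, 19 were higher and 8 lower. With the replicate number as a block, 24 were higher and 9 lower. The numbers were not taken to pair libraries: deviations of same-numbered libraries correlated at -0.00606, 0.00752 and -0.0033, and not every library correlated best with its own number. Low counts limit XRCC3 and RAD54B most.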
